A study of Mus musculus with 884 samples.

Results

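Mid-S cells of the fifth and the sixth day of neural differentiation were compared by which stretches of their autosomes had already replicated. They were the 41 S-phase cells, 20 at d5 and 21 at d6, whose deposited replication score lay between 40% and 70%. They came from 62 S-phase cells sorted at d5 and 64 at d6, and from 293 cells of all days with such scores among the 884 cells of the series. The replication score is the percentage of a cell's called autosomal bins that were replicated, so the cells were chosen by how far they were through S phase and not by which bins they had replicated.

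All 41 cells were CBMS1 cells, a female mouse embryonic stem cell line labelled with the strain CBA/MsM. The line was kept in 2i/LIF medium, turned into epiblast-like cells over 2 days and then cultured as floating aggregates in GK15 medium with no added factors. A d5 cell had thus spent 3 days in aggregates and a d6 cell 4 days, and no allele or other treatment set the groups apart. Other groups used beside them were the undifferentiated line (d0), its cells at d2, d3, d4 and d7, and epiblast stem cells (EpiSCs), a separate female line grown with Activin and FGF. The labels report that such aggregates form neurectoderm by d7. No expression was measured in these cells, so the labelled cell type could not be set against marker genes. The labels named no culture, so each day counted as 1 sample, no test was run, and every difference below is a description of these cells. Intervals are exact Clopper-Pearson 95% intervals and cover counting error only.

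In each S phase a mammalian genome is copied in a set order, by domains that hold many origins firing at about the same time. Early domains are mostly rich in active genes and lie in the nuclear interior, and late domains are mostly poor in genes and lie near the lamina or the nucleolus. Domains change their place in this order during differentiation, often together with their position in the nucleus and the activity of their genes. In single-cell Repli-seq a cell is sorted by its DNA content, its genome is amplified and sequenced, and each bin is called replicated or not from its copy number against cells in G1. In a cell halfway through S phase, early domains are replicated and late domains are not, so the share of mid-S cells that have replicated a bin is a measure of how early that bin replicates.

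The d5 and d6 cells were alike in how far they were through S phase. The d5 cells had a lowest, median and highest score of 42.2%, 55.99% and 68.4%, and the d6 cells of 42.1%, 52.2% and 69.5%. The mean was 55.6% ± 8.55 (SD over 20 cells) at d5 and 54.5% ± 8.50 (SD over 21 cells) at d6. The nearest cells left out had scores of 39.3% and 70.1% at d5 and of 39.8% and 71.2% at d6. Of the 30890 autosomal bins, each 80 kb long, a d5 cell had calls in 29530 to 29832 and a d6 cell in 29475 to 29819. Sorting gates, named for the position in S phase, contributed unequally. The 55% gate gave 7 of its 8 sorted cells at d5 and 8 of its 12 at d6, the 45% gate 5 of 9 and 4 of 12, and the 35% gate 5 of 12 and 3 of 11. The remaining 3 d5 and 6 d6 cells came from the 25%, 65% and 75% gates.

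Some features of the cells bear on every value below. Each day's cells had been corrected with a single G1 control made of 2 merged G1 cells, a different one for d5 than for d6, so the day and its control cannot be told apart within these cells. The titles of the 2 G1 cells used for d5 named day 5, while their other labels named day 6. Among the mid-S cells at d7, 22 had been corrected with the d6 control and 79 with other controls, and levels of the named regions at d7 are given for both (the d6 control first, then the others). In addition, a deposited filter column marked 4 of the d5 cells and 2 of the d6 cells. These were kept, and the main values are also given without them.

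Most of the genome kept its place in the replication order from d5 to d6. Of 29745 bins called in at least 50% of the cells of each day, 11048 (37.1%) were replicated in 80% or more of the cells on both days and 7901 (26.6%) in 20% or fewer on both days. The share of cells replicated correlated between the days across bins with a Pearson r of 0.927 (29745 bins, which are not independent and share the cells of each day). The median absolute difference per bin was 5 percentage points. Shares between 30% and 70% were found in 15.0% of bins at d5 and in 18.2% at d6.

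Against this background, 1120 bins (3.77% of those compared, 89.6 Mb) were replicated in at least 30 points more of the cells at d6 than at d5, and 1139 bins (3.83%, 91.1 Mb) in at least 30 points fewer. They are called earlier and later at d6 below. The earlier bins went from a mean share of 26.5% of d5 cells to 66.2% of d6 cells, and 663 of them crossed 50% upward. The later bins went from 72.4% to 33.1%, and 670 of them crossed 50% downward. The largest differences (d6 minus d5) were 70.95 and -75.95 points. Both days had nearly the same mean share over all bins (55.5% and 54.6%), so the summed gains and losses over all bins had to be similar. Without the 6 marked cells, 1425 bins were earlier and 1096 later, and 1053 and 896 of the bins named above were among them.

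**Figure D1:**
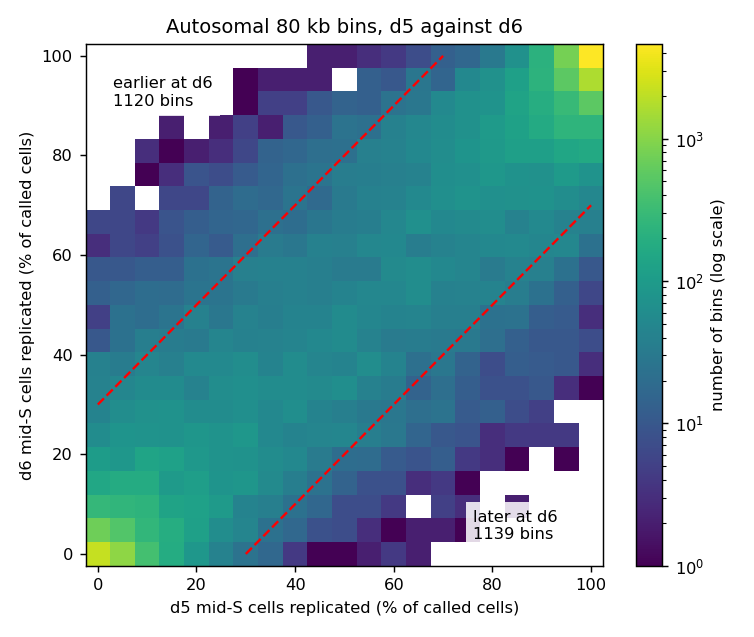
Number of autosomal 80 kb bins (colour, log scale) by the share of d5 mid-S cells (x axis, %) and of d6 mid-S cells (y axis, %) in which they were replicated. Most bins lie in the corners near 0% or 100% on both days; the 1120 bins on or above the upper dashed line and the 1139 on or below the lower one differ by 30 points or more.

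The d5 level of the changed bins, which the rule itself uses, is given as a description. A share near 50% has the largest counting error and shares near 0% or 100% can move in a single direction only, so these percentages would differ between classes without any change in timing. Of bins replicated in 20% to 40% of d5 cells, 10.4% were earlier at d6, and of those at 40% to 60%, 10.7% were. Of the latest bins, replicated in under 20% of d5 cells, 5.09% were earlier. Later bins made up 12.7% of those at 60% to 80% at d5 and 4.03% of the earliest bins, which were replicated in 80% or more of d5 cells.

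How many bins passed depended on how the cells were chosen and on the measure. With scores of 35% to 75% (23 d5 and 29 d6 cells), 1182 bins were earlier and 736 later. With cells of the 45% and 55% gates only, 12 a day, whose mean score was 59.2% at d5 and 53.7% at d6, the numbers were 776 and 2654. As a midpoint in S phase, from a logistic fit over all cells with scores of 5% to 95%, 0.366% of the 29745 bins moved by 30 points or more towards early and 0.235% towards late. Only the 23719 bins with midpoints from 10% to 90% on both days could count. Points of S phase are another scale than points of cell share, so these limits are not equivalent. The bins called earlier and later above had a median midpoint shift of -18 and 16 points. Its direction is set by the choice of bins, since 20 of the 50 d5 cells and 21 of the 52 d6 cells fitted had chosen them.

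The changed bins were also looked at cell by cell. In single d5 cells, the share of the earlier bins that was replicated had a lowest, median and highest value of 5.40%, 23.02% and 58.7%, and in d6 cells of 33.1%, 71.7% and 93.5%. For the later bins these values were 40.6%, 74.6% and 93.4% in d5 cells and 6.34%, 25.7% and 73.5% in d6 cells. The days overlapped, and cells with higher scores had replicated more of either set. The bins were chosen on these cells, so the gap between the days is a description of the choice.

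Cells of the same days with scores outside the window did not choose the bins, and in them the bins differed between d5 and d6 in the same directions. At scores of 20% to below 40%, the earlier bins were replicated to 7.85% ± 11.1 in d5 cells (SD over 12 cells) and to 24.4% ± 12.5 in d6 cells (SD over 10 cells). The later bins were replicated to 23.9% ± 11.3 in these d5 cells and to 7.30% ± 6.13 in these d6 cells, while all bins together stood at 31.3% and 30.8%. At scores above 70% to 90%, the earlier bins were at 83.3% ± 13.1 in d5 cells (12 cells) and 96.2% ± 4.01 in d6 cells (11 cells), and the later bins at 94.8% ± 2.61 and 86.7% ± 8.74. Over all bins these cells had replicated 79.5% and 80.4%. These cells had the same G1 control as the window cells of their day. Gaps in the same directions were present in cells with scores below 5%, in which few bins were replicated. There the earlier bins were at 0% to 0.272% in d5 cells and at 1.74% to 5.67% in d6 cells. The later bins were at 0% to 2.996% and at 0% to 0.537%, ranges that overlap. The scores of these cells were 0.036% to 2.75% at d5 and 0.954% to 4.81% at d6. What part such gaps have in those at higher scores was not tested.

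Bin by bin, 910 of the 1120 earlier bins (81.25%) were higher at d6 in the cells with scores of 20% to below 40%, against 36.96% of all bins. Of the 1139 later bins, 879 (77.2%) were lower at d6 in them, against 43.7% of all bins. At scores above 70% to 90%, where most bins are replicated in every cell, 690 earlier bins (61.6%) were higher and 559 later bins (49.1%) were lower, against 26.9% and 22.9% of all bins. Bins with equal shares on both days count as neither, so all bins are not an even base for the changed ones. The median difference of earlier and later bins was 11.7 and -15 points at scores of 20% to below 40%. It was 8.33 and 0 points at scores above 70% to 90%.

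**Figure D2:**
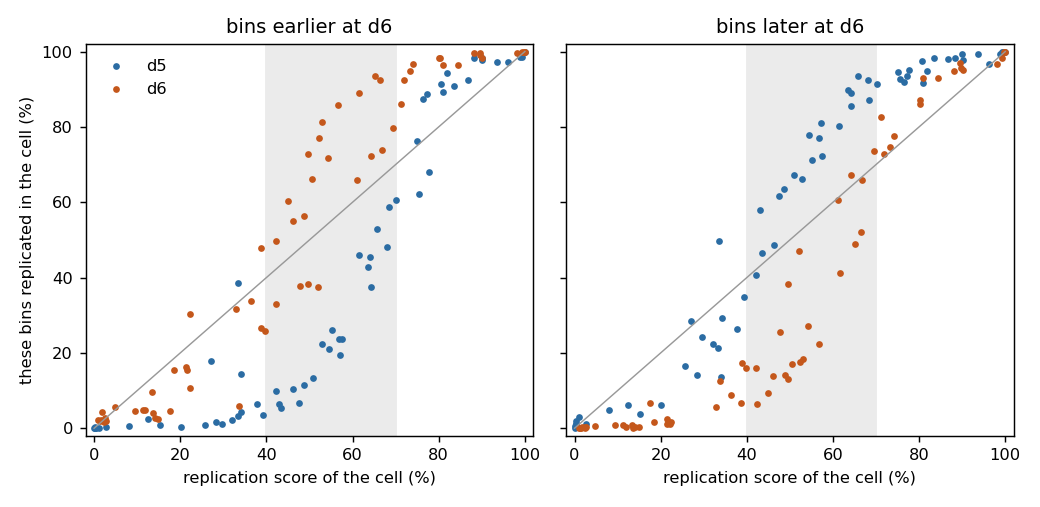
Share of the 1120 bins earlier at d6 (left) and of the 1139 bins later at d6 (right) that was replicated in each S-phase cell of d5 and d6 (y axis, %), against the replication score of the cell (x axis, %). Grey marks the 40% to 70% window whose cells chose the bins; on both sides of it most d6 cells lie above most d5 cells of like score on the left and below them on the right.

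The changed bins were also looked at in the cells of the other groups. Before d5, the earlier bins were replicated in a mean of 37.1% (d0), 26.1% (d2), 28.8% (d3) and 30.5% (d4) of the cells, against 26.5% and 66.2% on the days compared. At d7 they stood at 59.8%. The later bins had started from 64.2% (d0), 60.1% (d2), 64.2% (d3) and 61.3% (d4), against 72.4% and 33.1%, and stood at 44.8% at d7. The cells of d0 to d4, which had no part in choosing the bins, were thus nearer to d5 than to d6 in both sets, and d7 lay between d5 and d6 but nearer to d6. EpiSCs had 45.2% and 60.9%, between d5 and d6 for both sets. The d5 and d6 cells chose the bins for a difference of 30 points or more. Groups that did not choose them would therefore tend to lie between the d5 and d6 levels. Whether the bins moved back in part from d6 to d7 was not tested.

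At d7 the level differed between cells with the d6 control and cells with other G1 controls. The earlier bins were at 65.7% in the 22 cells with the d6 control and at 58.2% in the 79 cells with other controls, and the later bins at 36.8% and 47.01%. Within d7, 9.79% of the earlier bins were at least 30 points higher in the cells with the d6 control, against 1.66% of all bins, and 11.7% of the later bins at least 30 points lower, against 2.55%. In the d7 cells with other controls, both sets stood on the d6 side of their d5 level, by more than 25 points. The d5 cells chose the bins, so part of this gap is set by the choice. At d0 to d4, whose cells did not choose them, the earlier bins were at 26.1% to 37.1% and the later bins at 60.1% to 64.2%. Whether the control itself sets the difference within d7, and what part it has in the difference between d5 and d6, was not tested.

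Many changed bins lay side by side. Neighbouring bins of a cell mostly had the same call, so bins that differ between any sets of cells would tend to lie in runs. Runs of at least 5 adjacent changed bins, 400 kb or longer, formed 81 regions earlier at d6, with 568 bins (50.7% of the earlier bins), and 69 regions later at d6, with 481 bins (42.2% of the later bins). Their median length was 560 kb for gains and 480 kb for losses, and the longest reached 1120 kb and 1520 kb. Gains were found on all 19 autosomes and losses on 17. The gains held 1.91% of all bins compared and the losses 1.62%, and without the 6 marked cells these shares were 2.54% and 1.49%.

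Averaged over the gains, the share at the centre of a region was 24.4% in d4 cells and 22.8% in d5 cells, and 67.8% and 62.3% in d6 and d7 cells. At 400 kb to either side, d5 stood at 41.5% and 38.9%, and d6 at 56.7% and 56.6%. A dip in the d5 profile was thus a slight rise in the d6 profile. Over the losses, the centre was at 70.9% and 78.9% in d4 and d5 cells and at 32.9% and 43.9% in d6 and d7 cells, and the flanks at 400 kb went from 56.3% and 57.5% at d5 to 40.0% and 37.98% at d6. Of 80 gains with both flanks called, 31 had no early flank at d5, 31 had 1 and 18 had 2, where a flank is the mean of the 5 bins beside the region and early means a share above 50%. Of 68 such losses, 21 had none, 23 had 1 and 24 had 2.

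**Figure D3:**
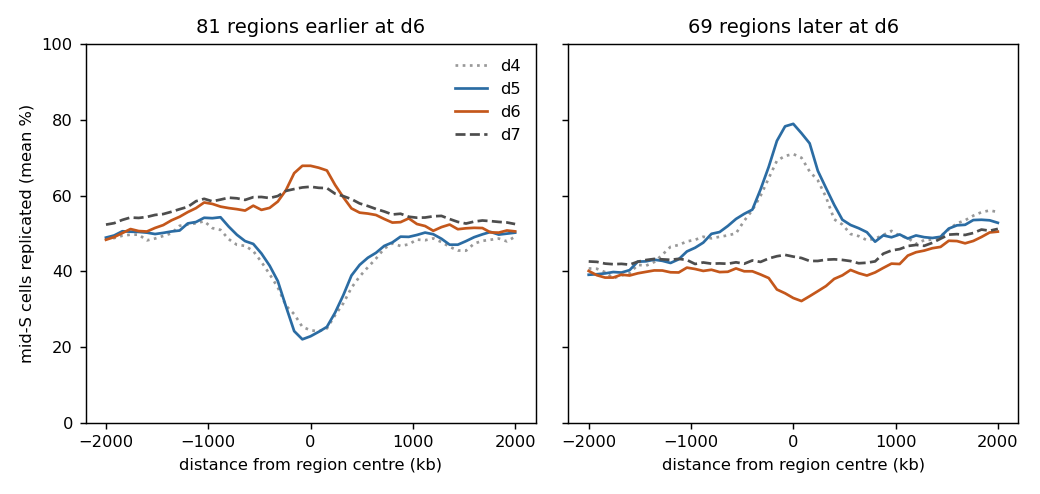
Mean share of mid-S cells replicated (y axis, %) by distance from the region centre (x axis, kb) over the 81 regions earlier at d6 and the 69 regions later at d6, at d4, d5, d6 and d7. The d4 and d5 lines run close together, with a dip to 22.8% at d5 on the left and a peak of 78.9% at d5 on the right. The d6 line rises to 67.8% on the left and falls to 32.9% on the right, and the d7 line is flatter. The d5 and d6 cells chose the regions, so the shapes of their lines are in part set by the choice.

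The regions with the largest mean difference are given by their position in mm9, since no annotation of that build was at hand to place genes on them. The cells that chose them are those measured here, so their sizes are a description. A cell is said to have replicated a region if over 50% of the region's called bins were replicated in it. Labels in the plot of single cells follow the order of size within gains (E) and losses (L). The longest gain plotted ranked 23 and the longest loss 9. A gain of the same length, chr4:70880001-72000000 (1120 kb), ranked 69 and is not plotted. Its mean share was 3.93% at d5 and 40.1% at d6, and 52.9% and 22.9% at d7 by control.

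The largest gain was chr11:36400001-36960000, which 1 of 20 d5 cells (5.00%, 0.127 to 24.9%) and 15 of 21 d6 cells (71.4%, 47.8 to 88.7%) had replicated. Its mean share was 7.75% at d0, 2.86% at d2, 4.76% at d4 and 10.4% in EpiSCs, so it was late in these groups. At d7 it stood at 81.8% and 58.4% by control. The gain at chr10:91280001-92240000 was replicated in 2 of 20 d5 cells and 16 of 21 d6 cells. It stood at 6.92% at d0 and 7.41% at d4, and at 96.97% and 73.6% at d7 by control, above its d6 mean of 68.7% with either.

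The neighbouring regions chr13:76560001-77360000 and chr13:78400001-79520000, the latter tied for the longest gain, were each replicated in 0 of 20 d5 cells (0 to 16.8%) and 13 of 21 d6 cells (61.9%, 38.4 to 81.9%). They had different histories before d5. The former was at 30.8% at d0, 20% at d3 and 7.22% at d4, and reached its lowest level, 1%, at d5. The choice of the regions favours a low level at d5. The latter was at 10.7% at d0, 16.9% at d4 and 15% at d5. At d7 the former was at 64.5% and 49.9% by control and the latter at 89.9% and 71.2%.

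The gain at chr9:81120001-81520000 is the least clear of those named. It was replicated in 1 of 20 d5 cells and 15 of 21 d6 cells, but at d7 its mean share was 45.5% in the cells with the d6 control and 4.35% in the others. At d0, d2, d3 and d4 it did not exceed 6.67%. In d6 cells with scores of 20% to below 40% it stood at 30%, and in such d5 cells at 0%.

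The gain at chr2:6640001-7280000 was replicated in 3 of 20 d5 cells and 14 of 21 d6 cells. Its right flank stayed late, at 18% at d5 and 12.4% at d6, while its left flank was early on both days, at 82% and 83.8%, so that the border between them lay on the other side of the region at d6. At d7 it was at 59.7% and 53.3% by control. In cells with scores of 20% to below 40% it stood at 8.62% at d5 and 6.25% at d6. The other named gains were higher at d6 in such cells. The gain at chr16:76160001-76960000 was replicated in 1 of 20 d5 cells and 12 of 21 d6 cells, with late flanks at d5. Its left flank was at 13% at d5 and 7.62% at d6, while its right flank went from 10% to 37.1%. The region had been at 40% at d3 and was at 62.7% and 71.9% at d7 by control.

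A pair of the named gains were above 50% at d4 and lower at d5. The region chr19:14080001-14800000 stood at 66.7% at d0, 76.2% at d2, 87.8% at d3 and 74.1% at d4, and then at 33.9% at d5 and 86.8% at d6. It was replicated in 7 of 20 d5 cells and 19 of 21 d6 cells. The region chr16:37280001-37680000 was at 72.5% at d0, 27.7% at d3, 64.4% at d4, 45% at d5 and 96.2% at d6, in 9 of 20 and 20 of 21 cells. In both, d5 was lower than d4 and d6, and the choice of the regions favours a low d5 level. At d7 the former was at 84.8% and 73.1% by control and the latter at 93.5% and 80.3%.

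**Figure D4:**
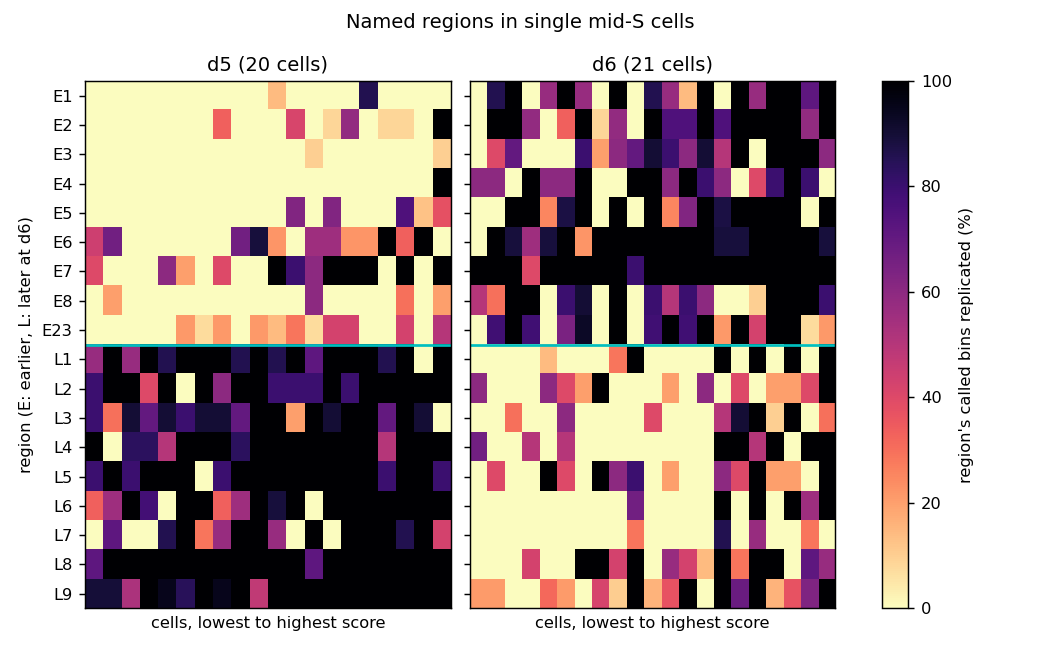
Percentage of a region's called bins replicated (colour) in each mid-S cell of d5 (left, 20 cells) and d6 (right, 21 cells). Cells are ordered from the lowest to the highest score. Above the line are the 8 largest gains and a gain tied for the longest (E). Below it are the 8 largest losses and the longest loss (L). At d5 the gains are mostly unreplicated and the losses mostly replicated, and at d6 the pattern is turned in most cells.

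Among the losses, the largest was chr15:65520001-66080000, replicated in 19 of 20 d5 cells (95%, 75.1 to 99.9%) and 5 of 21 d6 cells (23.8%, 8.22 to 47.2%). Beside it, chr15:66160001-66880000 was replicated in 16 of 20 and 6 of 21 cells, with a gap of a single bin of 80 kb between the regions. At d7 the former was at 25.3% and 13.2% by control and the latter at 29.8% and 38.96%, and in EpiSCs they were at 90.7% and 68.4%. A further named loss on this chromosome, chr15:39120001-39680000, was replicated in 20 of 20 d5 cells and 9 of 21 d6 cells, with a d6 mean of 45.6%. At d7 it stood at 50% in the cells with the d6 control, near its d6 level, and at 77.03% in the others.

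The loss at chr6:67200001-67600000 was early up to d5 (91.2% at d0, 88.9% at d4, 85% at d5) and was replicated in 18 of 20 d5 cells and 5 of 21 d6 cells. At d7 it stood at 29% and 31.6% by control, and in EpiSCs at 67.7%. The loss at chr1:52560001-54080000, the longest, went from 92.6% to 42.1%, in 19 of 20 and 7 of 21 cells, and stood at 40.4% and 51.7% at d7 by control. The loss at chr3:92880001-93440000 was replicated in 13 of 20 d5 cells and 2 of 21 d6 cells, with a mean share of 72.2% at d0. At d7 it was at 0% in the cells with the d6 control and at 12.7% in the others.

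A further pair of losses had gained early replication between d0 and d5. The region chr6:42000001-42800000 was at 12.2% at d0, 36.3% at d2, 39.4% at d4 and 78% at d5, and then at 24.3% at d6 and, by control, at 18.6% and 14.6% at d7. It was replicated in 17 of 20 d5 cells and 4 of 21 d6 cells. The region chr5:98480001-98960000 was at 9.77% at d0, 56.2% at d2, 80.6% at d4 and 87.5% at d5, and then at 34.1% at d6. It was replicated in 17 of 20 d5 cells and 6 of 21 d6 cells, stood at 48.5% and 64.8% at d7 by control, and was early in EpiSCs at 91.03%. In late S cells it was at 91.7% at d5 and 93.9% at d6, while the other named losses were lower at d6. Early replication of these regions was highest at d5 among the days sampled. The d5 and d6 cells chose the regions for a higher level at d5, so a peak at d5 is favoured by the choice.

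The loss at chr4:144160001-144560000 again differed by control at d7. It was replicated in 19 of 20 d5 cells and 7 of 21 d6 cells, and at d7 its mean share was 7.27% in the cells with the d6 control and 57.7% in the others.

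All regions were also set against their d5 level at d7. Of the 81 gains, 68 were at least 30 points above their d5 level in the d7 cells with the d6 control and 50 in the d7 cells with other controls. Of the 69 losses, 51 and 36 were at least 30 points below it. In the d7 cells with other controls, 2 gains and 3 losses did not lie on the d6 side of their d5 level. The d5 cells chose the regions and are the base of these counts, so a shift of d7 towards d6 is in part fixed by the choice, and the counts do not show how much of the change was kept.

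Single cells carried the gains and losses together to different degrees. The numbers replicated mostly rose with the score of the cell. These cells chose the regions, so the gap between the days is a description of the choice. A d5 cell had replicated 1 to 44 of the 81 gains (median 12) and 30 to 68 of the 69 losses (median 56.5), and a d6 cell 25 to 79 (median 57) and 3 to 54 (median 16). Of the 8 largest gains, d5 cells had replicated at most 3 and d6 cells at least 2, and of the 8 largest losses, d5 cells had replicated at least 6 and d6 cells at most 6. With a score of 52.2%, a d6 cell of the 55% gate had replicated 71 gains and 5 losses, while a d6 cell of the same gate with a score of 52.05% had replicated 27 and 36. The latter is one of the marked cells. Differences of this size between cells of like score were thus present within d6.

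A measure that the d5 and d6 cells did not choose was taken from bins that differ by 30 points or more between d4 and d7. From d4 to d7, 2516 bins (8.47% of those compared) were earlier and 1332 (4.48%) later. In the earlier ones the mean share was 25.4% and 68.7% at the ends, d4 and d7, and 45.1% at d5 and 58.4% at d6, so d5 stood at 45.5% and d6 at 76.1% of the way. In the 1327 later ones with values on both days, it was 72.3%, 51.9%, 34.6% and 28.6%, so d5 stood at 46.7% and d6 at 86.4% of the way. The bins were chosen for the difference between d4 and d7, which sets the ends of the scale but not the order of d5 and d6 within it.

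For each cell, the share of the earlier bins replicated minus that of the later bins was taken as an index. At d5 its lowest, median and highest values were -0.38, -0.052 and 0.119, and at d6 -0.326, 0.330 and 0.513. The median was -0.474 at d4 and 0.440 at d7. At or below 0 were 13 of 20 d5 cells and 2 of 21 d6 cells. The place of 0 depends on the bins: with bins that differ between d0 and d7, 4 of 20 d5 cells were at or below it and the d5 median was 0.095. With the bins from d4 to d7, 16 of 21 d6 cells lay above the highest d5 cell. The d6 cells were widely spread: 13 had values of 0.275 to 0.513, 6 of 0.024 to 0.195, and the remaining 2, at -0.247 and -0.326, lay lower than most d5 cells. The SD over cells was 0.138 at d5 and 0.216 at d6. With the bins taken from d7 cells of other controls only, the medians were -0.028 at d5 and 0.319 at d6.

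The marked cells were among the lowest on this index. The 4 at d5 had values of -0.38, -0.312, -0.251 and -0.116, and the 2 at d6 were those at -0.247 and -0.326. Without them the range was -0.194 to 0.119 at d5 and 0.024 to 0.513 at d6. The column that marks them is headed as a filter on the replication score, although all 6 had scores inside the window. Over the whole series it marked 67 S-phase cells, 19 of them with scores up to 5% or from 95%, while the column headed as a filter on the interquartile range marked all S-phase cells with such scores and no others.

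**Figure D5:**
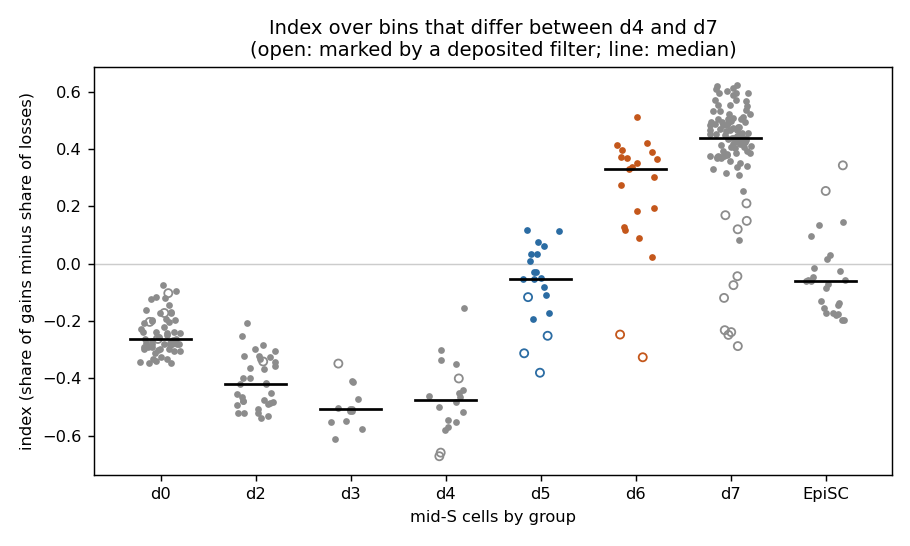
Index of each mid-S cell by group (y axis: share of bins earlier at d7 than d4 that was replicated, minus that of bins later at d7), with the group median as a line and cells marked by a deposited filter column as open circles. The d4 and d7 cells chose the bins; the d5 median is -0.052 and the d6 median 0.330, and 2 d6 cells, both marked, lie below 0.

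Each cell was also set against the mean profiles of the other groups. The measure is the chance that a bin the cell had replicated has a higher share in the profile than a bin it had not. At d5 the medians were 0.914 with the d0 profile, 0.937 with d4, 0.941 with d7 and 0.935 with EpiSCs, so a d5 cell was nearly as close to d4 as to d7. At d6 the medians were 0.878 with d0, 0.896 with d4, 0.947 with d7 and 0.910 with EpiSCs. Among the profiles of d0, d2, d4, d7 and EpiSCs, the best was d7 for 13 d5 cells, d4 for 3, d0 for 3 and d2 for 1, and at d6 it was d7 for 19 cells and d0 for 2. All 5 cells closest to d0 and the cell closest to d2 were the marked cells. No cell of either day was closest to EpiSCs. The profiles rest on different numbers of cells, 18 at d4 being the fewest, and are not equally precise. The d7 profile includes the 22 d7 cells corrected with the G1 control of d6, and no profile without them was used. What part this control has in the agreement of d6 cells with d7 was not tested.

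Cells of like score were nearly as alike between the days as within them. Pairs were formed of cells no more than 5 points apart in score, 55 within d5, 69 within d6 and the rest between the days. The median percentage of bins called alike was 84.4% within d5, 82.98% within d6 and 81.7% between d5 and d6. The ranges overlapped almost wholly, from 77.4% to 89.6% within d5, 74.1% to 89.2% within d6 and 75.5% to 87.5% between the days. Pairs share cells and are not independent.

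The bins that changed from d5 to d6 were compared with those that changed from d0 to d7, which shares no S-phase cell with it but has 22 d7 cells under the d6 control. From d0 to d7, 7.75% of bins were earlier and 7.71% later. Of 1116 bins earlier at d6 with values in both tables, 467 (41.8%) were earlier at d7 than at d0, which is 20.3% of that longer list, and 31 were later. Of 1137 bins later at d6, 403 (35.4%) were later at d7, which is 17.6% of that list, and 56 were earlier. From d0 to EpiSCs, 7.36% of bins were earlier and 6.34% later, and the shared bins were fewer, with 17.7% of the gains (9.05% of the other list) and 16.01% of the losses (9.67% of the other list), and 6.27% and 11.96% in the opposite direction. More than 50% of the bins that changed from d5 to d6 thus passed the threshold in neither direction from d0 to d7.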

How the data were processed

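Per the labels' protocols, cells were sorted singly by DNA content, and their DNA was amplified (SeqPlex) and read in single 80-bp reads. The submitters' processing notes name mm9, BWA 0.7.10-r789, cutadapt and Picard; their order and settings are not given in the sources used here. The deposited calls cover each 80 kb bin, coded 1 (replicated), -1 (not replicated) and 0 (no data), after a correction with a merged G1 control, per the file headers. The replication score deposited by the authors is a fraction; recomputed from the calls, it had a largest gap of 5.00e-08 points. Read depth was not used, and the number of bins called stands in for it. Smoothing and thresholds set by the authors limit how short a changed region can be.

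Days were taken from the labels. The 2 G1 cells whose labels disagree were put in no group. A bin's share counts only cells with a call in it, and bins with calls in 50% or more of both days' cells were kept. A difference of 0.3 or more counted as changed, and at least 5 adjacent changed bins as a region. The regions named are the 8 largest by mean difference and the longest in each direction. Of the gains tied for the longest, the one with the larger difference was used. For chromosomes, those with the highest and the lowest share of changed bins are named. Alternatives changed the window, gates, cells, threshold, bin filter, run length and measure. Leaving out cells marked by a filter column and splitting d7 cells by control were chosen after seeing the data. The members, rules and lists were chosen with earlier results of these data known.

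Coordinates are mm9, 1-based. Gene lists and sequences were not analysed here, since the tables at hand are of another build. Steps were tested on simulated data. Python 3.11.15 was used with numpy 2.4.6, pandas 2.3.3, scipy 1.17.1 and matplotlib 3.10.9.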

Additional observations from a re-analysis of the deposited data

How the results depend on the processing

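All values here are percentages of the 29745 bins compared; the main ones were 3.77% earlier and 3.83% later at d6, with 1.91% and 1.62% in regions. With scores of 35% to 75%, 2.47% were later and 0.733% lay in later regions. With the 45% and 55% gates only, 8.92% were later, and 1.24% and 4.56% lay in earlier and later regions. A difference of 0.2 gave 7.83% and 8.77%, with 4.54% and 4.72% in regions, and a difference of 0.4 gave 1.56% and 1.42%, with 0.548% and 0.380%. Runs of at least 3 bins gave 2.58% in later regions, and runs of at least 10 bins 0.377% and 0.380%. With the logistic midpoint, for which 23719 bins had midpoints from 10% to 90% on both days, they were 0.366% and 0.235%, with 0.0168% and 0.0538% in regions. Apart from the looser or stricter limits themselves, the cause was not tested. Over bins from d0 to d7, the median index of d5 cells was 0.095 in place of -0.052. Leaving out each cell in turn gave 3.27% to 4.97% earlier and 3.28% to 5.25% later, with 1.61% to 2.79% and 1.27% to 2.42% in regions. In 18 pairs matched in score within 2 points, 1288 bins were earlier and 1044 later, and 992 and 895 of the main ones were among them. The other alternatives stayed within 1.5 times the main percentages, and no cell had an agreement below 0.8 with its own day's profile (lowest 0.868). Of 90 alternative values of the named regions, 0 reversed in direction, and their sizes were 40.6 to 69.4 points. Each of these alternatives kept part of the cells that had chosen the regions for their size. A reversal was thus hardly possible, and the count is a description. The cell numbers in the labels number cells within a gate and pair no cells between days, so the matched pairs rest on the score alone. With 20 and 21 cells a bin's share moves in steps of about 5 points, and 1 sample a day gives no spread between cultures.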

Other observations

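The changed bins were unevenly spread over the autosomes. Chromosome 13 had the highest share, with 5.62% of its 1458 bins earlier and 5.21% later at d6 (10.8% in all), and chromosome 8 the lowest, with 2.24% and 2.82% of its 1563 bins (5.05% in all). Some chromosomes changed mostly in a single direction; these were singled out after their values were seen. On chromosome 18, 5.66% of bins were earlier and 1.37% later, and on chromosome 19, 4.41% and 0.826%, and neither held a loss region. Chromosome 15 had 2.31% earlier and 6.69% later, chromosome 5 had 1.41% and 4.18%, chromosome 17 had 1.83% and 4.27%, and chromosome 3 had 2.97% and 5.93%.

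Read as domains, runs of bins with a share above 50% or not, the genome held fewer domains at d6 in these cells. With 20 called cells a share can be exactly 50%, which counts as late, and with 21 it cannot. How far this moves the counts was not tested. Early domains of 400 kb or longer numbered 502 at d5 and 465 at d6, with a median length of 1520 kb and 1680 kb. Late domains of that length numbered 504 and 476, with medians of 1360 kb and 1440 kb. The number of changes between replicated and unreplicated calls along a cell's autosomes had a lowest, median and highest value of 858, 1350.5 and 1571 at d5 and of 787, 1178 and 1608 at d6, ranges that overlap widely. Bins replicated in every called cell numbered 7410 at d5 and 5759 at d6, and bins replicated in no called cell 3662 and 4037. A single cell can take a bin out of these counts. The days differed in cell number (20 and 21) and in median score (55.99% and 52.2%), and the marked cells were included. The counts are thus a description.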
